A study of Mus musculus with 8 samples.

Results

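The genes described are the nuclear-encoded genes of the mitochondrial respiratory chain, taken from the deposited count files by their symbols. The rule took every symbol that begins with Nduf followed by a subunit letter (A, B, C, S or V) and a digit, with Uqcr, with Atp5 or with Cox and a digit from 4 to 8, and the 4 symbols Sdha to Sdhd. It found 87 of the 34199 genes in the files, of which 37 belong by name to complex I, 4 to complex II, 8 to complex III, 19 to complex IV and 19 to complex V. RNA was sequenced from mouse granulocyte-macrophage progenitors immortalised with an estradiol-dependent HOXA9 (HOXA9-ER iGMPs, C57Bl/6, carrying a lysozyme-GFP reporter), in 8 libraries of 4 groups with 2 libraries each. Uninduced cells were kept in 150 ng/ml estradiol and sampled at 0 h. CAF-1 OFF cells kept the estradiol and received 500 µM IPTG for 48 h to induce a short hairpin RNA against Chaf1b, a subunit of the histone chaperone CAF-1. IPTG-treated control cells were a control culture given IPTG for 48 h with estradiol, and HOXA9 OFF cells were grown for 48 h without estradiol. All groups carry the HOXA9-ER fusion and the reporter, the study describes the shRNA-carrying cells as clonal lines, and no label says whether the libraries of a group came from separate cultures. The study's supplement speaks of a pair of independent sub-clones behind its RNA-seq tracks without tying them to these libraries, so p-values measure the spread between these libraries, which may be that of sub-clones of one line or technical.

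The respiratory chain passes electrons from NADH (complex I) and succinate (complex II) through ubiquinone to complex III, from there through cytochrome c to complex IV, and uses the resulting proton gradient to make ATP at complex V, the ATP synthase. Most subunits are encoded in the nucleus and a small set in mitochondrial DNA, so the complexes need matched output from both genomes. Immature myeloid progenitors divide rapidly, whereas mature neutrophils are known for few mitochondria and for a metabolism that relies on glycolysis. No mitochondrially encoded gene (mt- symbols) is among the genes of the files, so the other genome's share is not analysed here.

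Gene counts per library ran from 14044284 to 22423837. The targeted Chaf1b stood at 96.8 and 100.3 CPM (read counts scaled to the size of the library) in uninduced cells, at 95.1 and 102 in the IPTG-treated control, at 18.7 and 9.72 in CAF-1 OFF and at 48.3 and 41.0 in HOXA9 OFF, so the knockdown followed the labels and the level was also lower without HOXA9. Reads with several alignments, which the counting left out, made up 46.6% to 51.5% of the counting summary in uninduced and IPTG-treated control libraries, 44.0% to 44.8% in CAF-1 OFF and 41.9% to 42.0% in HOXA9 OFF, and reads outside any gene made up 14.6% of the reads aligned once in the first control library against 5.30% to 7.79% in the others. The part of these reads in the results was not tested. Summed neutrophil maturation markers were 181–242 CPM in uninduced cells, 1589–2735 in CAF-1 OFF and 7918–11488 in HOXA9 OFF, with 7 and 10 of the 10 markers called higher. In CAF-1 OFF most of that sum was Mmp8 (1091 and 1937 CPM), while S100a8 was at 27.95 and 44.5 CPM there against 2310 and 1524 in HOXA9 OFF, and Ltf at 0.474 and 0.523 against 1440 and 969. The summed markers of granulocyte-macrophage progenitors were 11264–15280 CPM in uninduced, 16814–16823 in CAF-1 OFF and 6805–9225 in HOXA9 OFF cells. These 10 genes did not move as one. Without HOXA9, 4 of them were called lower and 2 higher. Cd34 fell from 1872 and 1711 CPM in uninduced to 251 and 242 in HOXA9 OFF libraries, while Sfpi1 rose from 189 and 145 to 796 and 662. The single call among the 10 after CAF-1 depletion was a rise in Elane, from 462 and 260 to 823 and 1379 CPM. Markers of other lineages were lower in level and several moved with the groups. The 8 erythroid genes summed to 2.71–3.25 CPM in uninduced, 7.11–8.47 in CAF-1 OFF and 2.03–3.26 in HOXA9 OFF cells, with 3 of 4 tested called higher in CAF-1 OFF and Hba-a2 at 0 in every library. The 5 stromal and endothelial genes summed to 0.579–0.941, 2.05–7.21 and 1.84–2.48 CPM, with 1 of 2 tested, Col1a1, called higher in both states. The other, Col1a2, was called in neither against uninduced, with log2 differences of 0.79 in CAF-1 OFF and -1.15 in HOXA9 OFF. The 7 megakaryocyte genes summed to 25.3–26.7, 192–220 and 132–142 CPM, with 3 and 4 of 5 tested called higher and Gp1bb at 0 in all 3 groups. The 7 lymphocyte genes summed to 42.8–46.8, 46.4–48.3 and 57.6–67.3 CPM, with 1 of 3 tested called higher in CAF-1 OFF, 1 higher and 1 lower in HOXA9 OFF, and Cd3e and Cd3g at 0 in every library. The part of these cells in the results was not tested, and in bulk RNA fewer cells of a type and less RNA per cell cannot be told apart.

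The promoters of these genes are shown because many members moved together. Windows of 300 bases, from 250 bases before to 50 after the gene start, were available for 69 of the 87 genes in a RefSeq table on GRCm38.p6 (66 matched by symbol and 3 by a newer symbol). Printed are 5 of them, in capitals the matches to any of 4 motifs on either strand: Ndufa12 and Atp5b for the largest falls in HOXA9 OFF among members with an entry, Ndufs8 as the member called lower in CAF-1 OFF, Cox7a2l as the member that rose in HOXA9 OFF, and Uqcrc1 for its motif.
Ndufa12, chr10:94198785-94199084, plus strand: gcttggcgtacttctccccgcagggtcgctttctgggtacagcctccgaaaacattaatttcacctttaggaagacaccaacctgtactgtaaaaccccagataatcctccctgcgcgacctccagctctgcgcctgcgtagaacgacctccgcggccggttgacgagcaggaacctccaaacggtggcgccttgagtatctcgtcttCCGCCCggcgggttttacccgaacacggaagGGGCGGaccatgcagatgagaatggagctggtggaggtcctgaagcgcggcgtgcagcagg
Atp5b, chr10:128083057-128083356, plus strand: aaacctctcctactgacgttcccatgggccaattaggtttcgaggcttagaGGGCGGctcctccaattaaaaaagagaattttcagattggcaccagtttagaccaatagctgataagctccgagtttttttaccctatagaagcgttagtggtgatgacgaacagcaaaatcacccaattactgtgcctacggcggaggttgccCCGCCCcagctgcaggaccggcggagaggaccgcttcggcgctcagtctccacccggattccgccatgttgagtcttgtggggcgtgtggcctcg
Ndufs8, chr19:3912725-3913024, minus strand: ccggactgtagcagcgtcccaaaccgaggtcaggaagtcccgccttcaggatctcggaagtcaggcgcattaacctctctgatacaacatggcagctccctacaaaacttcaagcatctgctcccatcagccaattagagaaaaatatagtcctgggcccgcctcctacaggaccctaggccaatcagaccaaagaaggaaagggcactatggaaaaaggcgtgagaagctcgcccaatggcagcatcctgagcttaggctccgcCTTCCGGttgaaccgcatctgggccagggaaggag
Cox7a2l, chr17:83514284-83514583, minus strand: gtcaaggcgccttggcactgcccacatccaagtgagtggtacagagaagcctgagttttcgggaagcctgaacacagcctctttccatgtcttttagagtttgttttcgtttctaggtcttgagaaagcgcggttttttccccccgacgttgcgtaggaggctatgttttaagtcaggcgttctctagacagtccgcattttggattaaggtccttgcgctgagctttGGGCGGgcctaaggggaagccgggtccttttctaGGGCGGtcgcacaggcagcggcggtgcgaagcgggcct
Uqcrc1, chr9:108936398-108936697, plus strand: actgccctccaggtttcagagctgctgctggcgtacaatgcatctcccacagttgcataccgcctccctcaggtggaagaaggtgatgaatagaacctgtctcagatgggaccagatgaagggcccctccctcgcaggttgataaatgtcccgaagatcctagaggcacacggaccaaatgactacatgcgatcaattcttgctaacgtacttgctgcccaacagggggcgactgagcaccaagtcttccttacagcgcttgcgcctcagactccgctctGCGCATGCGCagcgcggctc

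The motifs searched were the core of the nuclear respiratory factor NRF1 site (GCATGCGC), the ETS site bound by GABP (CCGGAAG), the YY1 site (AAGATGGCG) and the GC box (GGGCGG), each on both strands. The NRF1 core lies within the longer NRF1 palindrome, in which it matches on both strands, and an ETS and a YY1 match may share 3 bases. The capitals in Uqcrc1 are that palindrome, those in Ndufs8 an ETS match on the opposite strand, and those in Ndufa12, Atp5b and Cox7a2l are GC boxes. The NRF1 core was in 14.5% of the 69 member promoters and in 3.05% of the promoters of all 27025 genes in the table, the palindrome in 7.25% and 1.07%, the ETS site in 23.2% and 9.93%, the YY1 site in 11.6% and 1.64%, and the GC box in 40.6% and 38.2%. At least one of NRF1 core, ETS and YY1 was in 28 of the 69 member promoters (40.6%), against 13.6% of all genes. Members called lower in HOXA9 OFF (26 with an entry) held the NRF1 core in 11.5%, the ETS site in 19.2% and the YY1 site in 7.69%, and tested members not called lower (39) in 15.4%, 28.2% and 15.4%. A match is a description of letters, not a bound site.

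The summed level of the 87 genes was lower in both induced states than in uninduced cells, and lowest in HOXA9 OFF. It was 18898 and 17239 CPM in the uninduced libraries, 17648 and 18326 in the IPTG-treated control, 14724 and 14698 in CAF-1 OFF, and 11890 and 12541 in HOXA9 OFF. The means were therefore 99.5% of uninduced in the IPTG-treated control, 81.4% in CAF-1 OFF and 67.6% in HOXA9 OFF, and the libraries of CAF-1 OFF and of HOXA9 OFF did not overlap those of any other group. With 2 libraries against 2 an exact permutation test cannot go below p = 0.333, so the sums are given without a test. Without any scaling, the genes took 1.80% to 1.91% of gene counts in uninduced, 1.78% to 1.90% in the control, 1.55% to 1.56% in CAF-1 OFF and 1.06% to 1.13% in HOXA9 OFF libraries.

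The summed level of complex V, the ATP synthase, fell to 58.4% of uninduced in HOXA9 OFF (7885 and 7319 CPM uninduced, 4343 and 4542 in HOXA9 OFF), which rests in part on its most abundant genes. Without Atp5b, which held 35.4% of the complex V sum over all libraries, it was 66.3% (4987 and 4602 against 3093 and 3260 CPM), and without Atp5a1 as well 69.6%. Complex III stood at 64.3% (1972 and 1778 against 1193 and 1217 CPM) and complex II at 71.3% (1218 and 1179 against 826 and 883 CPM). Complex IV stood at 76.3% (3151 and 2750 against 2160 and 2341 CPM) and complex I at 77.9% (4672 and 4213 against 3367 and 3558 CPM). In CAF-1 OFF the complexes lay closer together, from 77.9% in complex III (1444 and 1476 CPM) and 78.2% in complex II (938 and 936 CPM) through 79.6% in complex V (6084 and 6024 CPM) and 82.9% in complex IV (2427 and 2465 CPM) to 85.9% in complex I (3830 and 3797 CPM). The control lay between 98.9% and 101% of uninduced in every complex. By the median over tested genes complex III was lowest in HOXA9 OFF, at a log2 fold change of -0.69, against -0.57 in complex IV, -0.56 in V, -0.49 in II and -0.45 in I. Without Atp5a1 and Atp5b the sum of all other genes was 13957 and 12527 CPM in uninduced, 10878 and 10869 in CAF-1 OFF and 9406 and 10003 in HOXA9 OFF.

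**Figure D1:**
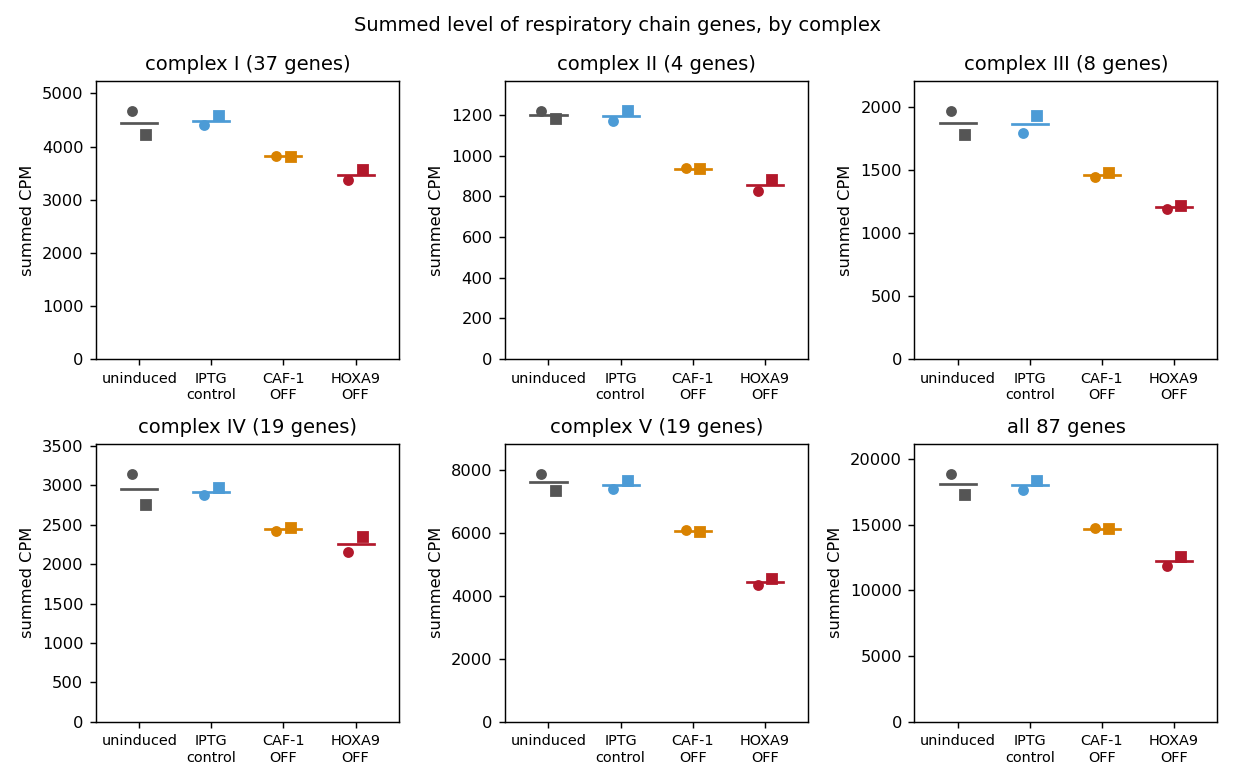
Summed CPM (y axis, from 0) of the genes of each complex and of all 87 genes in the 4 groups; circles are replicate 1, squares replicate 2 and bars the mean of 2 libraries. All panels have CAF-1 OFF and HOXA9 OFF below uninduced and the IPTG-treated control; HOXA9 OFF stands at 58.4% of uninduced in complex V (66.3% without Atp5b) and at 64.3% in complex III.

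Of the 87 genes, 80 passed the filter on low counts and were tested among 13080 genes; Cox6b2, Cox7b2, Cox8b, Cox8c, Atp5g2, Atp5l-ps1 and Atp5l2 did not, with at most 7 counts in any library. A gene was called at an FDR under 0.05 in edgeR's quasi-likelihood test and a change of at least 1.5-fold. In HOXA9 OFF against uninduced cells, 31 of the 80 were called lower and 1 higher, where 22.1% of all tested genes were called lower and 25.2% higher. In CAF-1 OFF 1 was called lower, Ndufs8, where 3.5% of all tested genes were called lower and 10.5% higher. Cox4i2 also met the rule for higher there, but it passed the filter only through its counts in CAF-1 OFF, so it had to differ and is described by its counts alone. No gene was called between the IPTG-treated control and uninduced cells (0% of all genes), and no member had an unadjusted p under 0.05 there; DESeq2 called 5 genes, none of them a member. The members' log2 fold changes had a median of -0.52 in HOXA9 OFF (all tested genes 0.01), -0.27 in CAF-1 OFF (0.01) and 0.00 in the IPTG-treated control (0.00). Scaling by library size only moved the median of all tested genes in HOXA9 OFF to -0.18. With it 2715 genes were called higher and 3701 lower in place of 3293 and 2886, and 49 members lower and 0 higher. The median of the members less that of all genes was -0.52 under both scalings. This is no check, since a change of scaling shifts all genes nearly alike.

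The members called lower in HOXA9 OFF included core subunits and others. Of the 20 conserved core subunits, 9 (45%) were called lower (median log2 fold change -0.57), and of the other 60 tested members 22 (median -0.49), where 22.1% of all tested genes were. In CAF-1 OFF the medians were -0.33 and -0.23. Many of these genes share sequence with other places in the genome. Of 86 members with annotated transcripts, 46 have a 50-base window that also lies at another place in mm9, 62 have at least 90% unique windows and 7 under 50%. Among the 58 tested members with at least 90% unique windows, 24 were called lower in HOXA9 OFF and 0 higher by edgeR, with a median of -0.50. Cox7a2l, the member called higher there over all 80, is not among them, with 45.7% unique windows. In the same 58 members the median in CAF-1 OFF was -0.27.

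Without the fold threshold, 53 members were lower and 5 higher in HOXA9 OFF at an FDR under 0.05, where 28% and 29.5% of all tested genes were lower and higher. In CAF-1 OFF the same rule gave 17 lower, where it gave 8.66% of all genes lower and 12.1% higher; Cox4i2, with the limit given above, was the only member on the higher side. The 17 lower members became 0 without uninduced replicate 1 or CAF-1 OFF replicate 2, 4 without CAF-1 OFF replicate 1, 9 without uninduced replicate 2, 12 and 8 without control replicate 1 and 2, and 25 without either HOXA9 OFF library. In CAF-1 OFF 75 of the 80 tested members had a log2 fold change below 0, and in HOXA9 OFF 66 did. Both CAF-1 OFF libraries lay below both uninduced libraries in 61 members and above in 3, Cox4i2 among them, where 33.0% of all tested genes lay below and 35.3% above. In HOXA9 OFF 62 members lay below and 7 above (38.9% and 39.2% of all genes), and in the IPTG-treated control 4 and 5 (9.46% and 8.86%). Both comparisons share the uninduced libraries; with uninduced replicate 1, the library with the highest member sum, left out, the median was -0.18 in CAF-1 OFF with 0 members called and -0.40 in HOXA9 OFF.

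**Figure D2:**
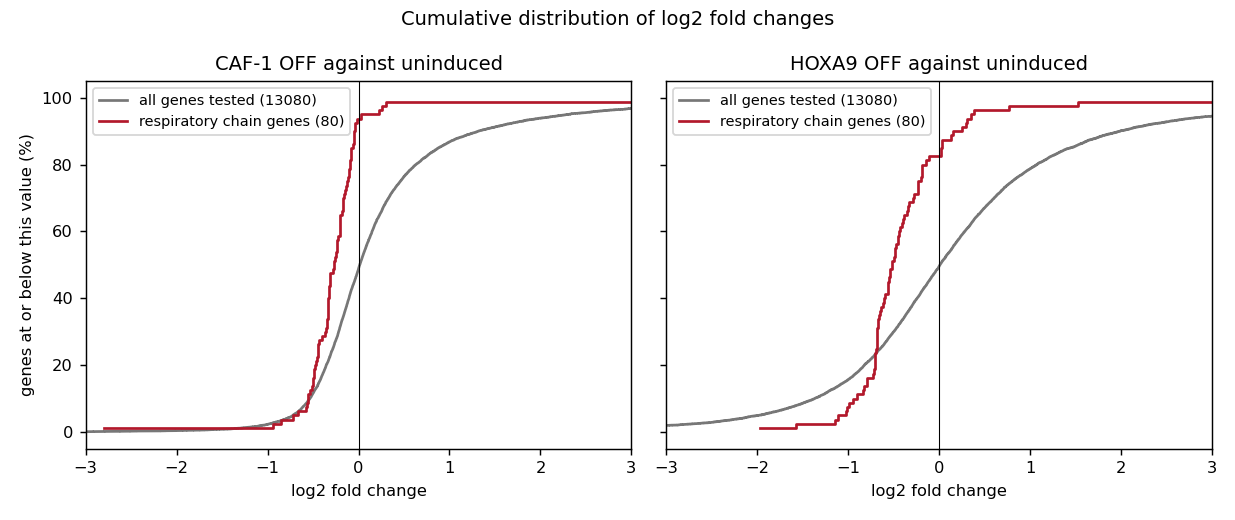
Percentage of genes (y axis) at or below a given log2 fold change (x axis) for the 80 tested respiratory chain genes (red) and all 13080 tested genes (grey), in CAF-1 OFF (left) and HOXA9 OFF (right) against uninduced cells. The red curve crosses the middle at -0.27 and -0.52, the grey curve at 0.01 in both panels, and the x axis ends at -3 and 3.

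Within complex V, the largest falls in HOXA9 OFF were in single genes: Atp5b of the catalytic beta subunit, Atp5g1 and Atp5g3 of the c ring and Atp5o of the stalk. Other stalk genes fell less or not at all, with log2 differences of 0.02 in Atp5h, -0.23 in Atp5j and -0.24 in Atp5f1, none called. Atp5b, the catalytic beta subunit (mm9 chr10:127520329-127527447), stood at 2898 and 2717 CPM in uninduced cells, 2702 and 2819 in the control, 2240.3 and 2227 in CAF-1 OFF and 1250.0 and 1282 in HOXA9 OFF. Its HOXA9 OFF libraries were below all others, 2.22-fold below uninduced, with a log2 fold change of -1.15 ± 0.10 (SE, adjusted p = 7.12e-05). Atp5a1, the alpha subunit and the member with the highest level per length in the complex (548 RPKM, the CPM per exon length, over all libraries), fell from 2043 and 1995 to 1234 and 1256 CPM (log2 -0.70 ± 0.10 SE, adjusted p = 5.97e-04). Atp5c1, the gamma subunit of the central stalk, had 360.1 and 307 CPM in uninduced and 232 and 222 in HOXA9 OFF libraries, a log2 difference of -0.55 ± 0.12 (SE, adjusted p = 0.00602) that stayed under 1.5-fold.

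The c ring subunit is encoded by 3 genes that give the same mature protein, and the counts cannot set their levels against each other, since reads with several alignments were not counted and 100%, 70.6% and 0% of the windows of Atp5g3, Atp5g1 and Atp5g2 are unique. Atp5g3 fell from 645 and 611 to 311 and 361 CPM (log2 -0.90 ± 0.11 SE, adjusted p = 2.67e-04). Atp5g1 fell from 4.50 and 4.88 to 2.55 and 1.79 CPM (log2 -1.11 ± 0.28 SE, adjusted p = 0.00972), and Atp5g2 had 2 to 7 counts per library. Atp5o, the stalk subunit that confers oligomycin sensitivity, fell from 245 and 229.8 to 111 and 123 CPM (log2 -1.02 ± 0.11 SE, adjusted p = 1.60e-04), while its neighbour Donson, which overlaps its exons on the same strand, had 17.6 and 15.7 against 15.7 and 11.6 CPM. In all, 7 of the 16 tested complex V genes (43.8%; all tested genes 22.1%) were called lower in HOXA9 OFF, the other calls being Atp5k and Atp5s. The latter, like Atp5sl, carries the name but is not counted as a synthase subunit.

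In CAF-1 OFF no complex V gene was called, where 3.5% of all tested genes were called lower and 10.5% higher. Atp5b had -0.33 ± 0.10 (SE, adjusted p = 0.0561) and Atp5a1 -0.33 ± 0.10 (SE, adjusted p = 0.0490) on the log2 scale, both with libraries below every uninduced one. Atp5g1 had 6.42 and 5.12 CPM there against 4.50 and 4.88 in uninduced cells. Compared directly with HOXA9 OFF, 3 of the 16 tested complex V genes (18.8%) were called higher in CAF-1 OFF, where 22.2% of all tested genes were. They were Atp5b (log2 0.82 ± 0.10 SE, adjusted p = 4.60e-04), Atp5g1 (1.41 ± 0.28) and Atp5o (0.93 ± 0.11). For Atp5c1 this difference was 0.06 ± 0.12 (adjusted p = 0.703), so CAF-1 OFF and HOXA9 OFF were not told apart for that subunit.

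Complex III was called lower in HOXA9 OFF in 5 of its 8 genes (62.5%; all tested genes 22.1%) and in CAF-1 OFF in none, where 3.5% of all tested genes were. Uqcrq, a small accessory subunit, went from 323 and 287 CPM in uninduced to 130.3 and 171 in HOXA9 OFF libraries (log2 -1.02 ± 0.15 SE, adjusted p = 8.79e-04). The core proteins Uqcrc1 and Uqcrc2 fell from 432 and 401 to 260.1 and 251 CPM (log2 -0.70 ± 0.10) and from 399.9 and 360.4 to 228 and 198 CPM (log2 -0.84 ± 0.11). Uqcrfs1, the Rieske iron-sulphur protein that passes the electron on, had a log2 difference of -0.39 ± 0.09 (SE, adjusted p = 0.00682) and was not called. Uqcr10 had the highest level per length in the complex (234 RPKM) and fell from 165 and 149 to 91.7 and 105 CPM.

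The CAF-1 OFF libraries were below the uninduced ones in Uqcrc1 at 290.0 and 297 CPM (log2 -0.50 ± 0.10 SE, adjusted p = 0.0147) and in Uqcrfs1 at 203 and 217 CPM (log2 -0.32 ± 0.09 SE, adjusted p = 0.0411), which passed the FDR but stayed under 1.5-fold. Uqcrq had 232 and 244 CPM in CAF-1 OFF libraries, higher than in HOXA9 OFF by 0.66 ± 0.15 (SE, adjusted p = 0.00801) on the log2 scale.

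Complex II, which joins the citric acid cycle to the chain, had 1 of its 4 genes called lower in HOXA9 OFF and 0 in CAF-1 OFF. Without the fold threshold, 3 and 1 were lower at an FDR under 0.05, where 28% and 8.66% of all tested genes were. Over all tested genes the share called lower with the fold threshold was 22.1% in HOXA9 OFF and 3.5% in CAF-1 OFF. The calls with that threshold in these 4 genes are near it. Sdhd, a membrane anchor and the member with the highest level per length (224 RPKM), was at 367 and 335 CPM in uninduced, 336 and 358 in control, 234 and 239 in CAF-1 OFF and 225 and 211 in HOXA9 OFF libraries. It was called in HOXA9 OFF (log2 -0.69 ± 0.10 SE, adjusted p = 6.24e-04) and passed the FDR without the fold in CAF-1 OFF (log2 -0.57 ± 0.10 SE, adjusted p = 0.0106). The flavoprotein Sdha went from 466 and 503 to 398 and 378 CPM in CAF-1 OFF and 347 and 359 in HOXA9 OFF, and the iron-sulphur subunit Sdhb from 182 and 150.4 CPM to 124 and 121 in CAF-1 OFF and 104 and 129 in HOXA9 OFF. Sdhc, the other anchor, had 203 and 191 CPM in uninduced, 182 and 199 in CAF-1 OFF and 151 and 183 in HOXA9 OFF libraries, with uninduced and CAF-1 OFF overlapping. Between CAF-1 OFF and HOXA9 OFF no complex II gene passed the FDR, with log2 differences of 0.07 to 0.19.

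Complex I, the largest complex, was uneven: 13 of its 37 genes (35.1%; all tested genes 22.1%) were called lower in HOXA9 OFF, and 10 had a log2 fold change above 0. Ndufa12, an accessory subunit of the peripheral arm (mm9 chr10:93661700-93684188), had the largest fall of any member called: 30.1 and 24.5 CPM in uninduced, 27.9 and 26.3 in control, 26.5 and 25.9 in CAF-1 OFF and 7.92 and 10.5 in HOXA9 OFF libraries. HOXA9 OFF was 2.97-fold below uninduced (log2 -1.57 ± 0.18 SE, adjusted p = 2.29e-04), and the other 6 libraries overlapped. Ndufa4, named for complex I but now regarded as a complex IV subunit, had the highest level per length of the 37 (509.7 RPKM) and fell from 302 and 284 to 146 and 149 CPM (log2 -0.99 ± 0.13 SE, adjusted p = 5.00e-04). Ndufa5, Ndufb6 and Ndufb2 completed the largest falls among called complex I genes, at -0.95 ± 0.14, -0.82 ± 0.13 and -0.80 ± 0.14.

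Of the conserved core subunits of complex I, those with counterparts in the bacterial enzyme, 3 were called lower in HOXA9 OFF. Of all tested genes 22.1% were. Ndufs1, the largest iron-sulphur subunit, fell from 222 and 237 to 137 and 141 CPM (log2 -0.73 ± 0.09 SE, adjusted p = 3.40e-04), Ndufv1, the NADH-binding flavoprotein, from 318 and 301 to 198 and 200.3 (log2 -0.64 ± 0.10), and Ndufs7 from 127 and 114 to 72.2 and 77.4 (log2 -0.69 ± 0.10). Ndufv2, Ndufs3 and Ndufs8 had log2 differences of -0.56 ± 0.12, -0.41 ± 0.12 and -0.33 ± 0.12. Ndufb9, second in level per length (223 RPKM), had 167 and 153 CPM in uninduced against 118 and 133 in HOXA9 OFF libraries.

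In complex I, 4 of 37 genes, all accessory, were higher in HOXA9 OFF at an FDR under 0.05 and under 1.5-fold. Over all tested genes 29.5% were higher at that FDR without a fold threshold. The 4 are named here after their values were seen. They were Ndufb3 (93.7 and 76.9 CPM in uninduced, 120.2 and 102 in HOXA9 OFF), Ndufv3 (87.9 and 82.7 against 105 and 112), Ndufa6 (92.0 and 82.4 against 107 and 106) and Ndufb11 (102 and 93.1 against 119.8 and 113). Their log2 fold changes were 0.38 ± 0.14, 0.35 ± 0.09, 0.29 ± 0.09 and 0.25 ± 0.09. With library size only as the scaling, 1 member in place of 5 was higher at this FDR, Cox7a2l, so these 4 did not pass.

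In CAF-1 OFF a different complex I gene led. Ndufs8, a core subunit that carries iron-sulphur clusters (mm9 chr19:3908870-3912717), was at 218 and 192 CPM in uninduced, 201 and 214 in control, 135 and 124 in CAF-1 OFF and 149 and 177 in HOXA9 OFF libraries. CAF-1 OFF libraries were below all others, with log2 fold changes of -0.66 ± 0.12 (SE, adjusted p = 0.0122) against uninduced and -0.68 ± 0.12 (SE, adjusted p = 0.0127) against the control. Against HOXA9 OFF the log2 fold change was -0.33 ± 0.12 (SE, adjusted p = 0.0479), under 1.5-fold. The call against uninduced was lost without uninduced replicate 1 (adjusted p = 0.0847) or CAF-1 OFF replicate 2 (0.110). Ndufs7, its partner in the electron path, had 84.3 and 78.2 CPM in CAF-1 OFF (log2 -0.57 ± 0.10 SE, adjusted p = 0.0118).

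Of the 37 complex I genes, 5 (13.5%) were called higher in CAF-1 OFF than in HOXA9 OFF, a smaller share than the 22.2% of all tested genes: Ndufa12, Ndufa4, Ndufb6, Ndufs1 and Ndufa10. Each was also called lower in HOXA9 OFF against uninduced, a comparison that shares the HOXA9 OFF libraries. The differences between the 2 states were log2 1.51 ± 0.18, 0.90 ± 0.13, 0.81 ± 0.13, 0.62 ± 0.09 and 0.67 ± 0.09. In CAF-1 OFF against uninduced cells the same 5 genes had log2 differences of -0.06, -0.09, -0.01, -0.11 and -0.05, none with an FDR under 0.05.

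Complex IV combined broadly expressed subunits with isoforms restricted to other tissues. Cox4i1, the common form of subunit 4, had the highest level per length of all 87 genes (1150.2 RPKM) and 941 and 759.6 CPM in uninduced, 658 and 694 in CAF-1 OFF and 705 and 770.4 in HOXA9 OFF libraries, with HOXA9 OFF replicate 2 above the lower uninduced one. Its log2 fold change in HOXA9 OFF was -0.20 ± 0.13 (SE, adjusted p = 0.207). Cox8a, second at 631 RPKM, fell from 406 and 391 to 251 and 249 CPM (log2 -0.67 ± 0.09 SE, adjusted p = 4.57e-04), and Cox5a from 110.5 and 98.7 to 55.9 and 77.5 (log2 -0.65 ± 0.17 SE, adjusted p = 0.0114). Cox5b had a log2 difference of -0.57 ± 0.14 (SE, adjusted p = 0.00947), just under 1.5-fold, and 37.3% of its 50-base windows are unique. Of the 15 tested genes, 5 were called lower (33.3%; all tested genes 22.1%): Cox8a, Cox5a, Cox7b, Cox7a2 and Cox4nb.

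Cox4nb matches the rule by its name but encodes a protein of an endoplasmic reticulum membrane complex. It lies next to Cox4i1 (mm9 chr8:123177814-123192012 and chr8:123192190-123198109, on opposite strands). It fell from 88.6 and 82.7 to 46.6 and 52.4 CPM in HOXA9 OFF (log2 -0.79 ± 0.11 SE, adjusted p = 5.63e-04), whereas its neighbour did not pass the test. Without it, 30 members were called lower in HOXA9 OFF.

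Cox7a2l, known as a factor in the assembly of respiratory supercomplexes (mm9 chr17:83901259-83913673), was the member called higher in HOXA9 OFF. It had 124 and 104 CPM in uninduced, 114 and 93.7 in control, 102 and 90.6 in CAF-1 OFF and 209 and 179 in HOXA9 OFF libraries, where the latter stood above all others. It was 1.70-fold higher than in uninduced (log2 0.76 ± 0.15 SE, adjusted p = 0.00287) and lower in CAF-1 OFF than in HOXA9 OFF, with a log2 fold change of -1.01 ± 0.15 (SE, adjusted p = 9.41e-04). With library size only as the scaling its log2 fold change was 0.57 (adjusted p = 0.00733), which is not a call. Of its 50-base windows 45.7% are unique in the genome, and reads from the rest would not be assigned to it.

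**Figure D3:**
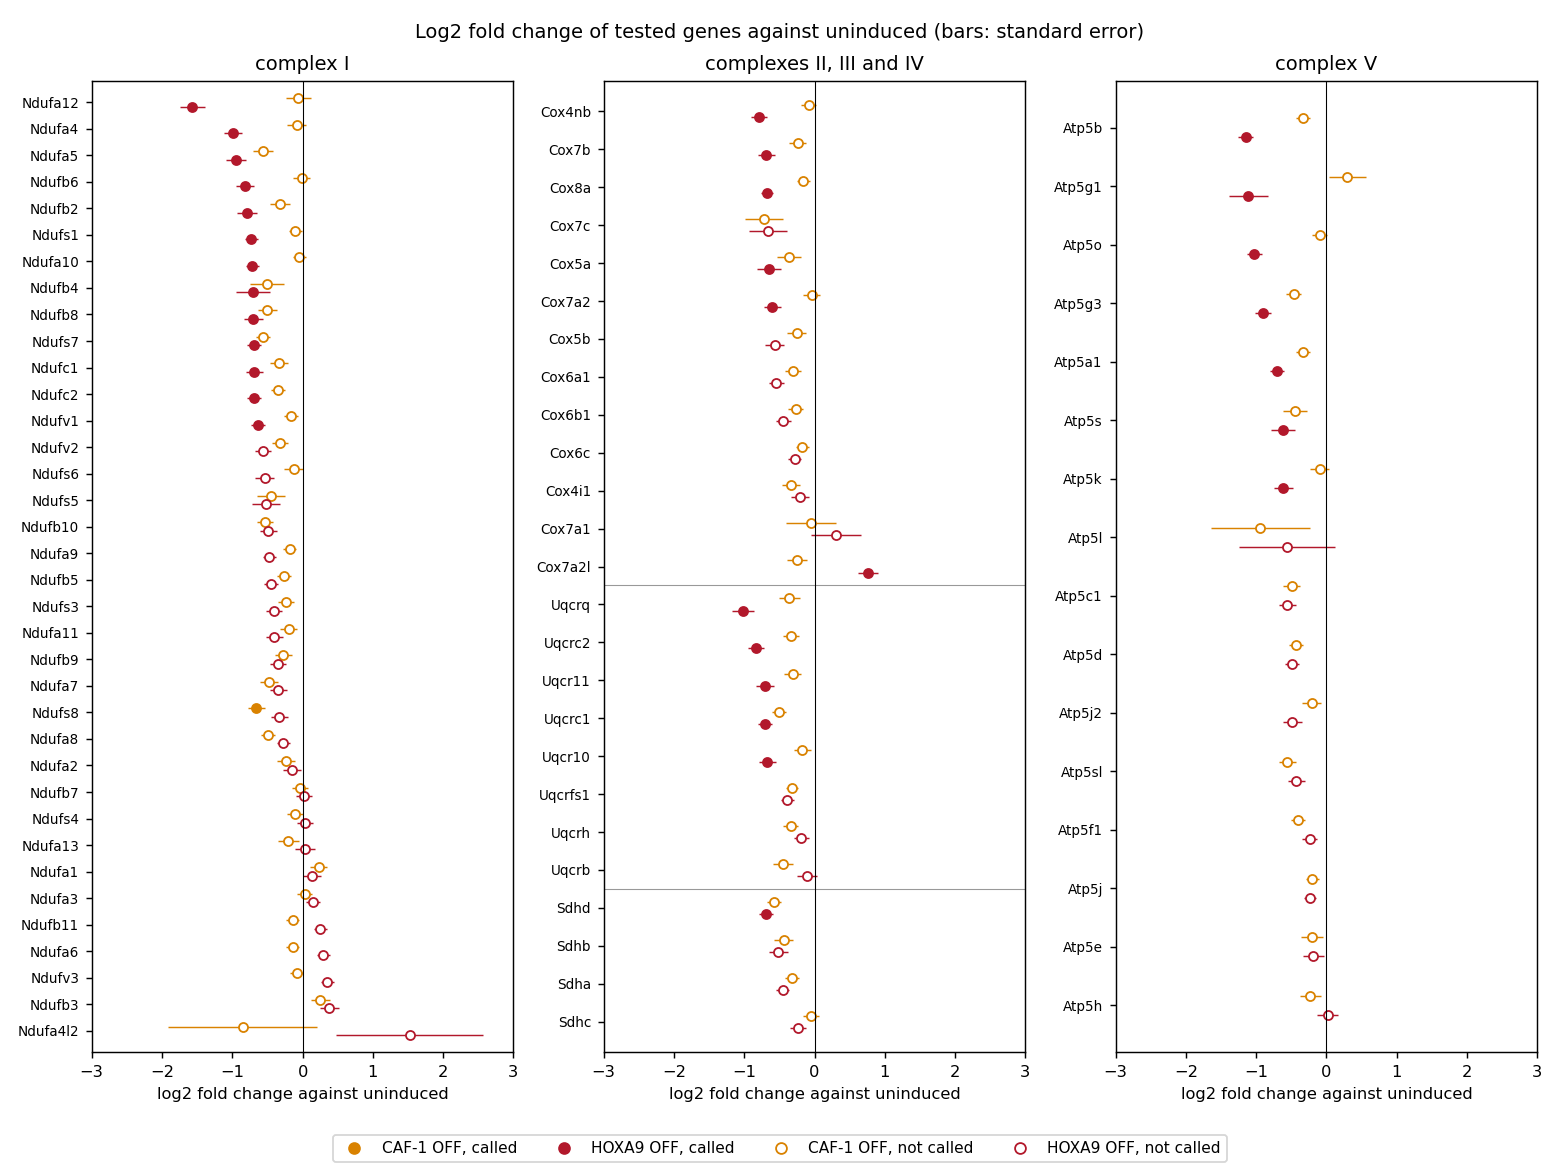
Log2 fold change against uninduced (x axis) of 77 of the 80 tested genes by complex, in CAF-1 OFF (orange) and HOXA9 OFF (red); filled points were called, bars are standard errors, and the horizontal lines separate complexes IV, III and II from top to bottom. Red points lie left of 0 in most genes and reach -1.57 in Ndufa12, with Cox7a2l on the right at 0.76, and the one filled orange point is Ndufs8 at -0.66; Cox4i2 and Cox6a2 are left out for scale.

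Most of the isoforms known from other tissues were at or near 0. The testis isoforms Cox7b2 and Cox8c and the muscle isoform Cox8b had no count in any library, which allows up to 3 counts, or 0.212 CPM in the smallest library. Cox6b2 had 0 to 5 counts per library. Of the genes without tissue restriction, Atp5l-ps1 and Atp5l2 stayed at or below 3 counts in every library. Cox7a1, the muscle form of subunit 7a, had 2.98 and 3.38 CPM in uninduced, 2.26 and 3.87 in CAF-1 OFF and 3.26 and 4.61 in HOXA9 OFF libraries, all overlapping.

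Cox4i2, the alternative form of subunit 4 known from lung and from low oxygen, lies at mm9 chr2:152579909-152590773. It had 0 and 0 counts in uninduced, 1 and 0 in control, 11 and 25 in CAF-1 OFF and 3 and 1 in HOXA9 OFF libraries. Set against 3 counts in the smaller uninduced library, the mean CAF-1 OFF level of 0.943 CPM was at least 7.06-fold higher. This is a description with no test, since the gene passed the filter through these counts. The level is that of a few reads, beside Cox4i1 at 658 and 694 CPM in the same libraries.

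Cox6a2, the heart and skeletal muscle form of subunit 6a, was expressed in these cells at 38.4 and 62.5 CPM in uninduced and 42.5 and 70.7 in control libraries. The CAF-1 OFF libraries had 8.79 and 5.75 CPM and HOXA9 OFF 2.28 and 23.3, so that all 4 induced libraries lay below the other 4. Its log2 differences were -2.79 ± 0.85 (SE, adjusted p = 0.0543) in CAF-1 OFF and -1.97 ± 0.81 (SE, adjusted p = 0.0710) in HOXA9 OFF, and neither was called. The spread between libraries was wide, from 2.28 to 23.3 CPM within HOXA9 OFF. The gene overlaps exons of Itgad on the opposite strand, which had at most 1.16 CPM. Ndufa4l2, known as a hypoxia-inducible relative of Ndufa4, had 7.34 and 15.6 CPM in uninduced, 6.84 and 5.86 in CAF-1 OFF and 2.98 and 62.9 in HOXA9 OFF, where the 2 libraries lay at the lowest and the highest value of all 8. It overlaps exons of Shmt2 on the opposite strand (1036 and 987 CPM in uninduced, 168 and 231 in HOXA9 OFF), and whether the counting used the strand is not given in the sources used here.

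**Figure D4:**
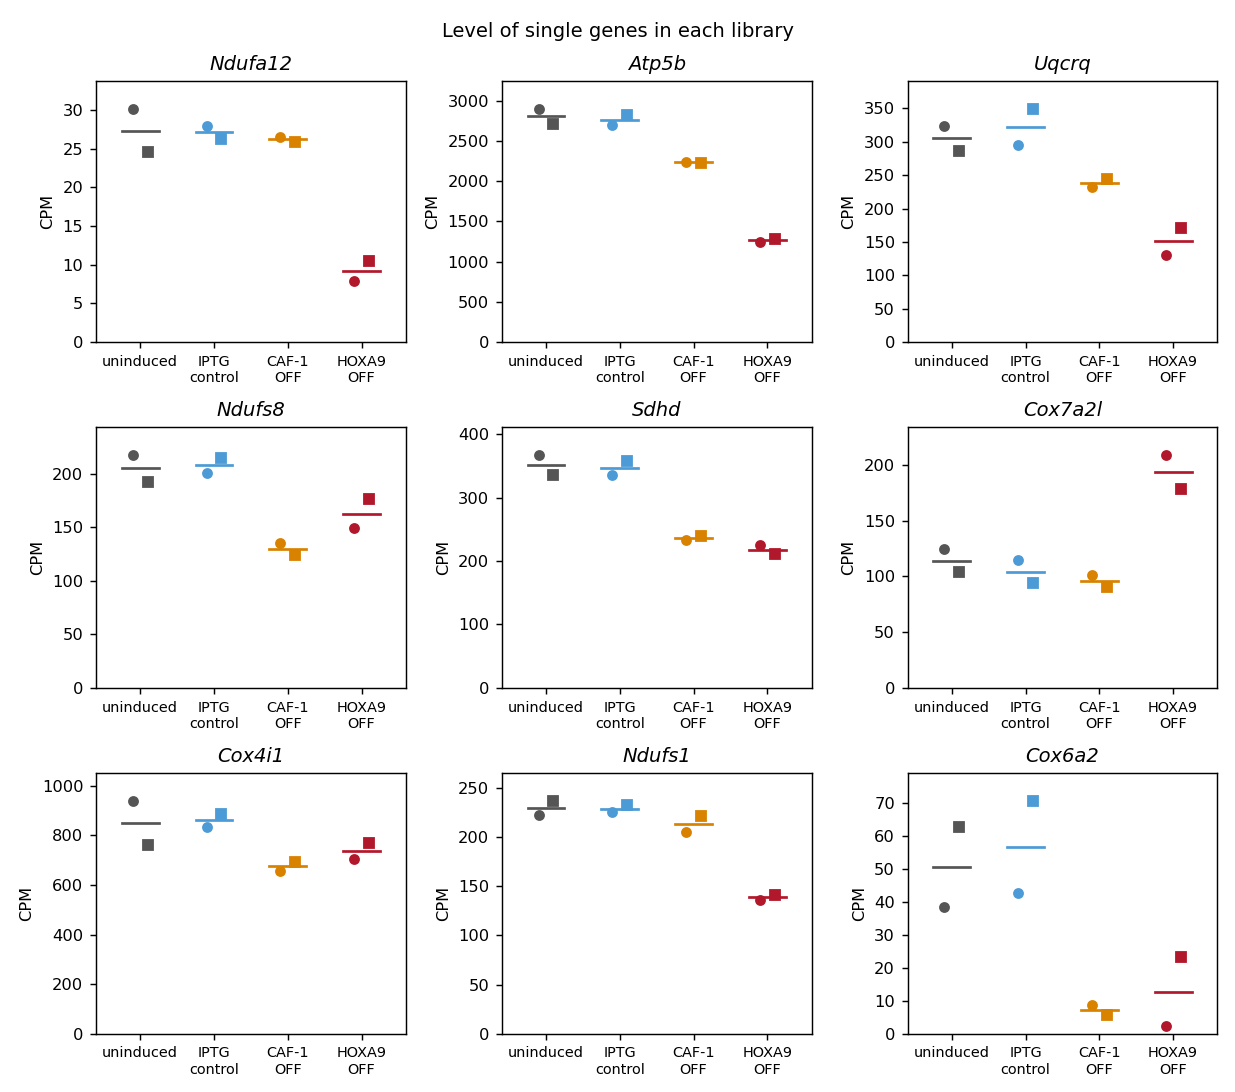
CPM (y axes, from 0, each panel its own scale) of 9 genes in each library; circles are replicate 1, squares replicate 2 and bars the mean of 2 libraries. Ndufa12, Atp5b, Uqcrq and Ndufs1 are lowest in HOXA9 OFF, Ndufs8 is lowest in CAF-1 OFF, Sdhd is low in both, Cox7a2l is highest in HOXA9 OFF, and Cox4i1 was called in neither state.

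Against the IPTG-treated control, CAF-1 OFF had 3 members called lower, Ndufs8, Ndufb10 and Atp5sl, where 3.2% of all tested genes were lower and 9.56% higher. Ndufb10 had 96.8 and 86.9 CPM in CAF-1 OFF and 142 and 134 in the control (log2 -0.59 ± 0.12 SE, adjusted p = 0.0186), and Atp5sl 28.4 and 26.5 against 42.3 and 43.3 (log2 -0.64 ± 0.12 SE, adjusted p = 0.0149). The median over the members was -0.27 (all tested genes 0.01). Of the 17 members lower in CAF-1 OFF against uninduced at an FDR under 0.05 alone, 12 were also lower against the control, though both comparisons share the CAF-1 OFF libraries. The rule for higher was met by Cox4i2 alone, with the same limit as above. With either control library or CAF-1 OFF replicate 2 left out, 0 members were called in this comparison, and 0 were lower at the FDR alone.

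Against HOXA9 OFF, CAF-1 OFF had 11 members called higher and 1 lower, where 22.2% of all tested genes were higher and 21.4% lower. The median was 0.17 (all tested genes 0.04), and scaling by library size only moved both, to 0.41 and 0.27, with 24 members called higher and 1 lower, and 3949 higher and 2064 lower calls in all genes in place of 2898 and 2797. Of the 31 members called lower in HOXA9 OFF against uninduced, 10 were called higher in CAF-1 OFF than in HOXA9 OFF. The other 21 were not called between these states, and both comparisons share the HOXA9 OFF libraries. The 11th member called higher was Cox4i2, with the limit given above. Both CAF-1 OFF libraries lay above both HOXA9 OFF libraries in 45 members and below in 15, where 40.8% and 37.4% of all tested genes did.

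Other nuclear genes that serve mitochondria were counted in the same comparisons, where 22.1% of all tested genes were called lower and 25.2% higher in HOXA9 OFF, and 3.5% and 10.5% in CAF-1 OFF. Of 6 genes of the chain that the symbol rule does not catch, among them the electron carrier gene Cycs and an inhibitor, 3 were called lower in HOXA9 OFF and none in CAF-1 OFF: Ndufab1 (31.2 and 32.1 CPM in uninduced, 10.9 and 13.6 in HOXA9 OFF), Cyc1, the cytochrome c1 of complex III (293 and 289.5 against 121 and 115), and Atpif1, the inhibitor of the ATP synthase (212 and 167 against 83.8 and 92.6). Of 38 tested assembly factors, 24 (63.2%) were called lower in HOXA9 OFF and none higher, with a median log2 fold change of -0.77. In CAF-1 OFF 4 (10.5%) were called lower, with a median of -0.28. Ndufaf4, a complex I assembly factor, had 66.0 and 64.3 CPM in uninduced, 38.5 and 32.4 in CAF-1 OFF and 16.4 and 17.4 in HOXA9 OFF libraries, and Ecsit, another, had 53.2 and 50.9 in uninduced, 45.7 and 49.4 in CAF-1 OFF and 11.3 and 14.6 in HOXA9 OFF. Ndufaf4 was called lower in both states, and Ecsit in HOXA9 OFF. Ecsit was also called lower in HOXA9 OFF than in CAF-1 OFF, a comparison that shares the HOXA9 OFF libraries.

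Of 75 tested mitochondrial ribosomal protein genes, which translate the mitochondrially encoded subunits, 52 (69.3%) were called lower in HOXA9 OFF and 9 (12%) in CAF-1 OFF, with none higher in either and medians of -0.81 and -0.34. Mrpl12 went from 170.1 and 148 CPM in uninduced to 96.4 and 95.5 in CAF-1 OFF (log2 -0.73 ± 0.11) and 35.6 and 37.6 in HOXA9 OFF (log2 -2.12 ± 0.11). Of 19 genes of pyruvate dehydrogenase and the citric acid cycle, 12 (63.2%) were lower and none higher in HOXA9 OFF (median -0.62), led by Suclg2 (-1.80 ± 0.12), Idh3a (-1.76 ± 0.10) and Idh2 (-1.75 ± 0.11). In CAF-1 OFF 1 was lower, Suclg1 (-0.68 ± 0.11), and 1 higher, Pcx (0.67 ± 0.14), each 5.26% of the list, with a median of -0.24.

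Among 17 tested regulators of mitochondrial gene expression, 9 (52.9%) were lower and 2 (11.8%) higher in HOXA9 OFF (median -0.61). Ppargc1b, a coactivator of mitochondrial genes, fell from 11.0 and 10.8 to 0.977 and 1.59 CPM (log2 -3.07 ± 0.26 SE, adjusted p = 5.93e-05), Myc from 574 and 527 to 129.7 and 115 (log2 -2.17 ± 0.13) and Pprc1, a related coactivator, from 132 and 165 to 39.1 and 48.3 (log2 -1.76 ± 0.15). Ppargc1b had 10.5 and 9.67 CPM with CAF-1 OFF, and the one call of 17 (5.88%) was Nrf1, the gene of the factor whose motif was searched, which had 74.3 and 80.4 CPM in uninduced and 44.8 and 51.8 in CAF-1 OFF libraries (log2 -0.68 ± 0.13 SE, adjusted p = 0.0140; median of the list -0.24). Of 13 tested carriers and porins, 4 (30.8%) were lower and 2 (15.4%) higher in HOXA9 OFF, among them the ADP/ATP carrier Slc25a5 (-0.88 ± 0.10) and the pyruvate carrier gene Brp44 (0.75 ± 0.14), with a median of -0.47. In CAF-1 OFF Vdac3 was lower (-0.59 ± 0.11), 7.69% of the list, with a median of -0.23. In lists of 13 to 19 genes, 1 call in CAF-1 OFF and the 4 lower calls of 13 in HOXA9 OFF are near the shares of all tested genes.

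**Figure D5:**
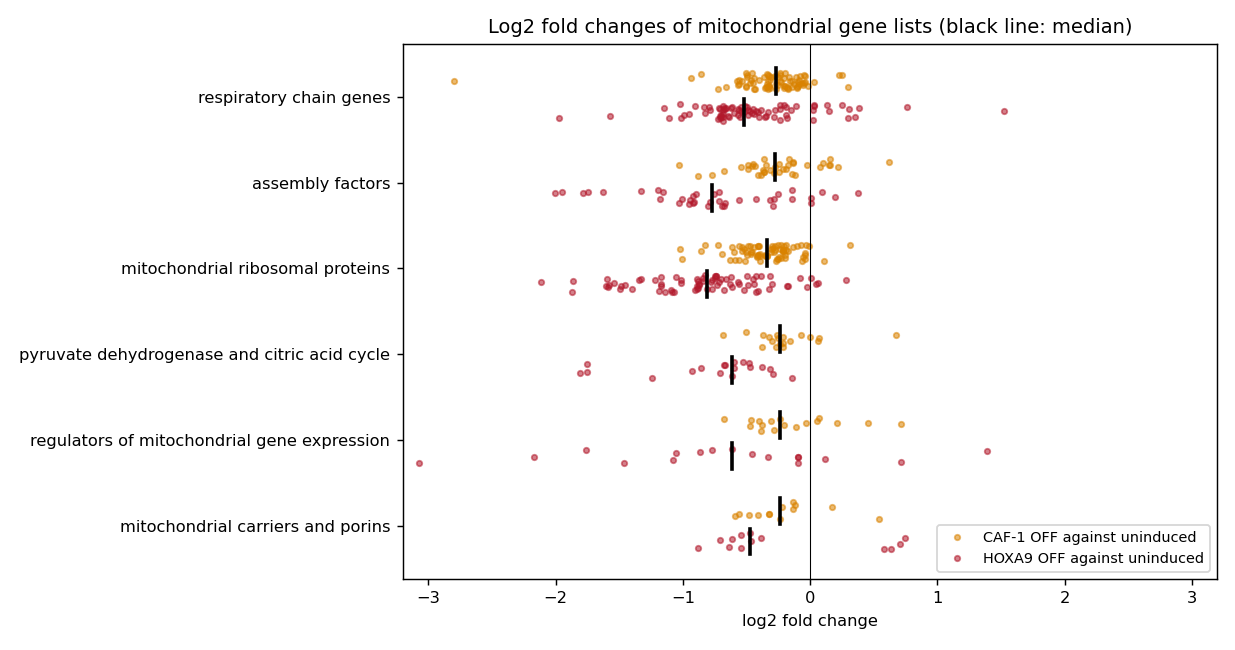
Log2 fold change against uninduced (x axis) of each tested gene in 6 mitochondrial gene lists (rows), in CAF-1 OFF (orange) and HOXA9 OFF (red); black lines are medians and the vertical spread of points carries no value. All medians lie left of 0, from -0.23 to -0.34 in CAF-1 OFF and from -0.47 to -0.81 in HOXA9 OFF; Cox4i2 falls outside the axis.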

How the data were processed

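RNA-seq counts of 8 libraries were analysed, 2 in each of 4 groups taken from the sample labels. Per the study's methods, a directional NEBNext kit was used, and the authors aligned reads to mm9 with STAR and assigned them to genes with HTSeq-count; what they deposited is 1 file of unscaled counts for each library, keyed by gene symbol. The annotation version and whether counting used the strand are not given in the sources used here, so overlapping genes on opposite strands may share reads. HTSeq's 5 summary lines (no feature, ambiguous, multiple alignments) were kept out of library sizes.

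Genes were kept by filterByExpr (13080), scaled by TMM and fitted with edgeR 4.0.16 (R 4.3.3) by quasi-likelihood over all 8 libraries with a mean per group; FDR is Benjamini-Hochberg adjusted over all tested genes. The common biological coefficient of variation was 18.9%. Genes were called at 1.5-fold or more with an FDR under 0.05, the thresholds the authors used. Standard errors derive from the F statistic. CPM use TMM-scaled library sizes; RPKM divide these by the union of GENCODE vM1 exons. Uniqueness is the share of a gene's 50-base transcript windows found once in mm9. Gene counts of 14044284 to 22423837 set the precision, where 3 counts stand for 0.128 to 0.212 CPM. The code was tested on simulated counts with known changes in HOXA9 OFF. It called 40.3% of the 2-fold changes and 7 genes without a change, so a gene not called can still differ.

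The members and gene lists were chosen with earlier results of these data known. Named are core subunits and tissue-restricted isoforms, up to 6 highest and 6 lowest called members per comparison, the 2 highest per length in each complex, members at or below 3 counts, members called in opposite directions, and up to 4 per other list; 1 core subunit that this rule names is not reported here and not drawn gene by gene. In those lists 10 symbols absent from the files were matched by older symbols. Alternatives were other scalings and filters, DESeq2 1.42.0, fits of the compared groups, the replicate block, each library left out and other thresholds; restriction to genes with at least 90% unique windows and leaving out Cox4nb were chosen after seeing the data.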

Additional observations from a re-analysis of the deposited data

How the results depend on the processing

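No called member changed sign under the alternatives, nor did the medians of the comparisons with CAF-1 OFF or HOXA9 OFF; the summed levels by complex were not recomputed under other scalings. The counts below include Cox4i2, which passed the filter only through CAF-1 OFF. Leaving out each library in turn (the lone library of that group is assumed to vary like the others) gave 0 to 5 members called in CAF-1 OFF against uninduced (2 in the report; 0 without uninduced replicate 1 or CAF-1 OFF replicate 2), 24 to 41 in HOXA9 OFF against uninduced (32), 0 to 5 in CAF-1 OFF against the IPTG-treated control (4; 0 without CAF-1 OFF replicate 2 or either control library) and 10 to 15 in CAF-1 OFF against HOXA9 OFF (12), and medians of -0.36 to -0.18, -0.62 to -0.40, -0.33 to -0.25 and 0.11 to 0.21; the median of the IPTG-treated control against uninduced ran from -0.074 to 0.093. In the same order of comparisons, an FDR under 0.01 with 2-fold left 0, 5, 0 and 3 calls and an FDR under 0.05 with no fold 18, 58, 14 and 32. Library size only gave 49 calls (median -0.71) in HOXA9 OFF against uninduced and 25 (median 0.41) in CAF-1 OFF against HOXA9 OFF. Upper quartile factors gave 43 (median -0.63) and 19 (median 0.30). The median of all genes moved with the scaling, and which scaling is right was not tested. Over all genes in HOXA9 OFF, library size only turned 3293 higher and 2886 lower calls into 2715 and 3701. With no filter 5 members were called in CAF-1 OFF against uninduced, and with a mean of at least 50 counts 1 there and 2 against the control, where Cox4i2 is no longer tested. Same-numbered libraries correlated in their deviations from the group means at 0.30 to 0.48 among uninduced, control and HOXA9 OFF. With CAF-1 OFF the correlations were -0.04 to 0.08. The labels number the replicates without calling them pairs, and the main fit took none. The replicate block gave 3, 33, 5 and 12 calls, which held all 2, 32, 4 and 12 of the report, and 0 for the IPTG-treated control. Of the called members, 20 of 32 and 9 of 12 in the HOXA9 OFF comparisons kept their call under all alternatives but the stricter threshold, and 0 of 2 and 0 of 4 in the CAF-1 OFF comparisons with uninduced and control cells. Depth limits Cox4i2, Cox7a1, Cox7c, Ndufb4, Atp5g1 and Atp5l, each under 10 CPM in all libraries.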
